A study of Rattus norvegicus with 27 samples.

Results

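Cadherins and protocadherins are the calcium-dependent adhesion proteins of the cadherin superfamily, and their transcripts were followed through 3 stages of cultured rat Schwann cells, the glia of peripheral nerves. The members were the rows of the cell mRNA table whose gene name is Cdh followed by a number or begins with Pcdh, which gave 68 of 17315 rows, 19 Cdh genes and 49 protocadherins. The undifferentiated cells were kept without dbcAMP (dibutyryl cyclic AMP, a form of cyclic AMP that enters cells). For the differentiated stage, DMEM with 1% serum carried 1 mM dbcAMP over 72 h, a treatment meant to drive them towards the myelinating state. The dedifferentiated cells received the same treatment and then 72 h without dbcAMP in complete medium with 10% serum, forskolin and 10 ng/mL neuregulin, meant to take them to a repair state. Each stage had 3 libraries labelled as biological replicates. All 3 stages were primary cells of a commercial stock at passages 3 to 5, with no genetic change named in the labels. The labels do not say which donors or separate cultures the replicates came from, so p-values measure the spread between these libraries, which may be partly technical. The medium and harvest time of the undifferentiated cells are not spelled out, and serum, forskolin and neuregulin changed together with dbcAMP, so their effects cannot be told apart.

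Classical cadherins join neighbouring cells through their outer domains and bind catenins inside the cell, which tie the junction to actin. Type I members, such as E-cadherin (Cdh1) and N-cadherin (Cdh2), form strong contacts between cells of one kind, and type II members, such as Cdh6, Cdh11 and Cdh19, share the catenin-binding tail. In nerve, N-cadherin is known from contacts of Schwann cell precursors and immature Schwann cells with axons and with each other, Cdh19 is known as a cadherin of the Schwann cell lineage, and E-cadherin is known from the junctions that a myelinating cell makes with itself in its non-compact myelin. Protocadherins lack the catenin-binding tail. Most sit in the alpha, beta and gamma clusters, where many alternative first exons, each with its own promoter, give a cell a combination of surface proteins, and others, such as the delta protocadherins, are single genes.

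Levels are estimated counts per 1000000 counts of the library (CPM), a scale that is not divided by gene length, so a level is compared across stages for 1 gene and never between genes. The 9 libraries held 10058735 to 16212278 estimated counts and 11278 to 11831 detected genes, and 3 counts, the limit that a count of 0 allows, came to 0.185 to 0.298 CPM, for counting error only. Of 8 Schwann cell markers, 7 were measured and tested, and their summed level was 8140 to 9370 CPM in undifferentiated, 8490 to 11100 CPM in differentiated and 18400 to 21300 CPM in dedifferentiated libraries. Of markers of other cells, all 5 neuron, 5 of 6 macrophage, 4 of 6 endothelial, 4 of 8 fibroblast, 3 of 4 muscle and 2 of 4 perineurial ones stayed under 1 CPM in every library. The fibroblast list also holds Col1a1, which brought its sum to 15700 to 19700, 5340 to 7620 and 9810 to 12600 CPM in the 3 stages. The perineurial list holds Itgb4 at 127.8, 247.5 and 267.6 CPM, called higher at both later stages (edgeR adjusted p = 0.00253 and 0.00297), and Slc2a1 at 29.45, 40.31 and 39.58 CPM. The macrophage list holds Cd68 at 0.724, 3.41 and 1.36 CPM and Csf1r at 0, 0.71 and 0.718 CPM. Both were called higher in differentiated than in undifferentiated cells (edgeR adjusted p = 0.00387 and 0.00231), and Csf1r also in dedifferentiated cells (edgeR adjusted p = 0.0062). Changes were tested with edgeR's quasi-likelihood test over 10372 genes, and a gene is called at an adjusted p (Benjamini-Hochberg over all genes tested) under 0.05. In bulk RNA, fewer cells of a type and less RNA per cell cannot be told apart.

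The members as a whole made up 0.218% ± 0.00915 of all counts in undifferentiated libraries, 0.127% ± 0.00387 in differentiated and 0.166% ± 0.00986 in dedifferentiated libraries (SD, n = 3). Of the 68 members, 48 had enough counts to be tested. Under dbcAMP 5 members rose and 14 fell, 19 called in all, while 59.6% of all genes tested were called, 31.7% higher and 27.9% lower. For 22 of the 48 members, and for 66.3% of all genes tested, every library of one stage lay above every library of the other. After withdrawal 7 members rose and 5 fell against the differentiated cells, 12 called, beside 46.4% of all genes, 23.2% higher and 23.2% lower, and the libraries did not overlap for 17 members and for 58.5% of all genes. Against the undifferentiated cells, the dedifferentiated cells had 2 members higher and 14 lower, 16 called, beside 29.4% of all genes, 16.1% higher and 13.3% lower, and the libraries did not overlap for 21 members and for 43.9% of all genes. The 48 members' median log2 changes in these 3 comparisons were -0.16, -0.18 and -0.46, against medians over all genes of 0.05, -0.01 and 0.02. The 3 comparisons share their stages, so the counts are not independent of each other. Of the 48 tested members 34 were rows of the protocadherin clusters, and results with each cluster summed are given at the end. The counts after withdrawal depended on single libraries, with 7 higher and 9 lower without dedifferentiated replicate 1, and 6 higher and 3 lower without dedifferentiated replicate 2 or without dedifferentiated replicate 3. Over all genes 43%, 38.3% and 37.3% were called in these fits, in order of the replicate left out.

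E-cadherin, Cdh1, had the largest fitted rise of the 48 tested members under dbcAMP, and no change after withdrawal was called. It stood at 0.161, 0.769 and 0.196 CPM in undifferentiated replicates 1, 2 and 3. It stood at 130.0, 105.0 and 116.3 CPM in differentiated and at 167.1, 90.67 and 90.34 CPM in dedifferentiated replicates 1, 2 and 3. Every differentiated and dedifferentiated library lay far above every undifferentiated one, where the gene had 13 counts in all 3 libraries together. The mean went from 0.376 ± 0.341 to 117.1 ± 12.5 CPM (SD, n = 3), a log2 rise of 8.32 (SE 0.43, edgeR adjusted p = 7.34e-08). The ratio of summed counts, scaled by the library totals, was 344, with a 95% exact interval of 201 to 646 that covers counting error only. Dedifferentiated cells averaged 116.0 ± 44.2 CPM, a log2 change of 0.00 from the differentiated level (SE 0.23, edgeR adjusted p = 0.998) and of 8.32 from the undifferentiated level (SE 0.43, edgeR adjusted p = 7.99e-07). Dedifferentiated replicate 1 stood above the other two of its stage. Cdh3, P-cadherin, whose gene is the direct neighbour of Cdh1 in the RefSeq annotation of assembly GRCr8, stayed between 1.53 and 2.80 CPM in the 9 libraries and was called in no comparison.

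N-cadherin, Cdh2, fell under dbcAMP and rose after withdrawal to a level below its start. It stood at 296.8, 353.0 and 369.7 CPM in undifferentiated replicates 1 to 3, at 80.6, 122.7 and 147.0 CPM in differentiated and at 136.3, 250.4 and 250.9 CPM in dedifferentiated replicates 1 to 3. The differentiated libraries were all below the undifferentiated ones, while dedifferentiated replicate 1 lay within the differentiated range and the other two lay between the stages. The fall under dbcAMP, from 339.8 ± 38.2 to 116.8 ± 33.6 CPM (SD, n = 3), was a log2 shift of -1.60 (SE 0.24, edgeR adjusted p = 0.000206). The rise after withdrawal to 212.5 ± 66.0 CPM was 0.88 (SE 0.24, edgeR adjusted p = 0.0122), and within replicates 1 and 2, which share a sequencing project, it did not pass (edgeR adjusted p = 0.0559). The remaining difference from undifferentiated cells was -0.73 (SE 0.24, edgeR adjusted p = 0.0411), and 7 of 20 alternative settings lost this call, among them library size alone in place of TMM factors and replicates 1 and 2 alone. Leaving out dedifferentiated replicate 1 gave -0.51 (edgeR adjusted p = 0.0811), without dedifferentiated replicate 3 the adjusted p was 0.0527, without differentiated replicate 2 it was 0.0550, without undifferentiated replicate 2 it was 0.0912 and without undifferentiated replicate 3 it was 0.0999. In the dedifferentiated stage the library with the highest Cdh1 level, replicate 1, had the lowest Cdh2 level.

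Cdh19 fell under dbcAMP and rose after withdrawal to levels that overlapped those at the start. Its levels were 198.0, 280.1 and 272.7 CPM in undifferentiated, 58.28, 41.75 and 53.66 CPM in differentiated and 303.6, 256.3 and 311.9 CPM in dedifferentiated replicates 1 to 3. All differentiated libraries were below every library of the other 2 stages, which overlapped each other. The means were 250.3 ± 45.4, 51.2 ± 8.53 and 290.6 ± 29.98 CPM (SD, n = 3). The log2 change was -2.34 under dbcAMP (SE 0.16, edgeR adjusted p = 4.74e-07) and 2.51 after withdrawal (SE 0.16, edgeR adjusted p = 8.51e-07). Between dedifferentiated and undifferentiated cells the difference was 0.17 (SE 0.15, edgeR adjusted p = 0.425). Its direct neighbour in the RefSeq annotation of GRCr8, Cdh7, was at 0 in all 9 libraries.

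**Figure D1:**
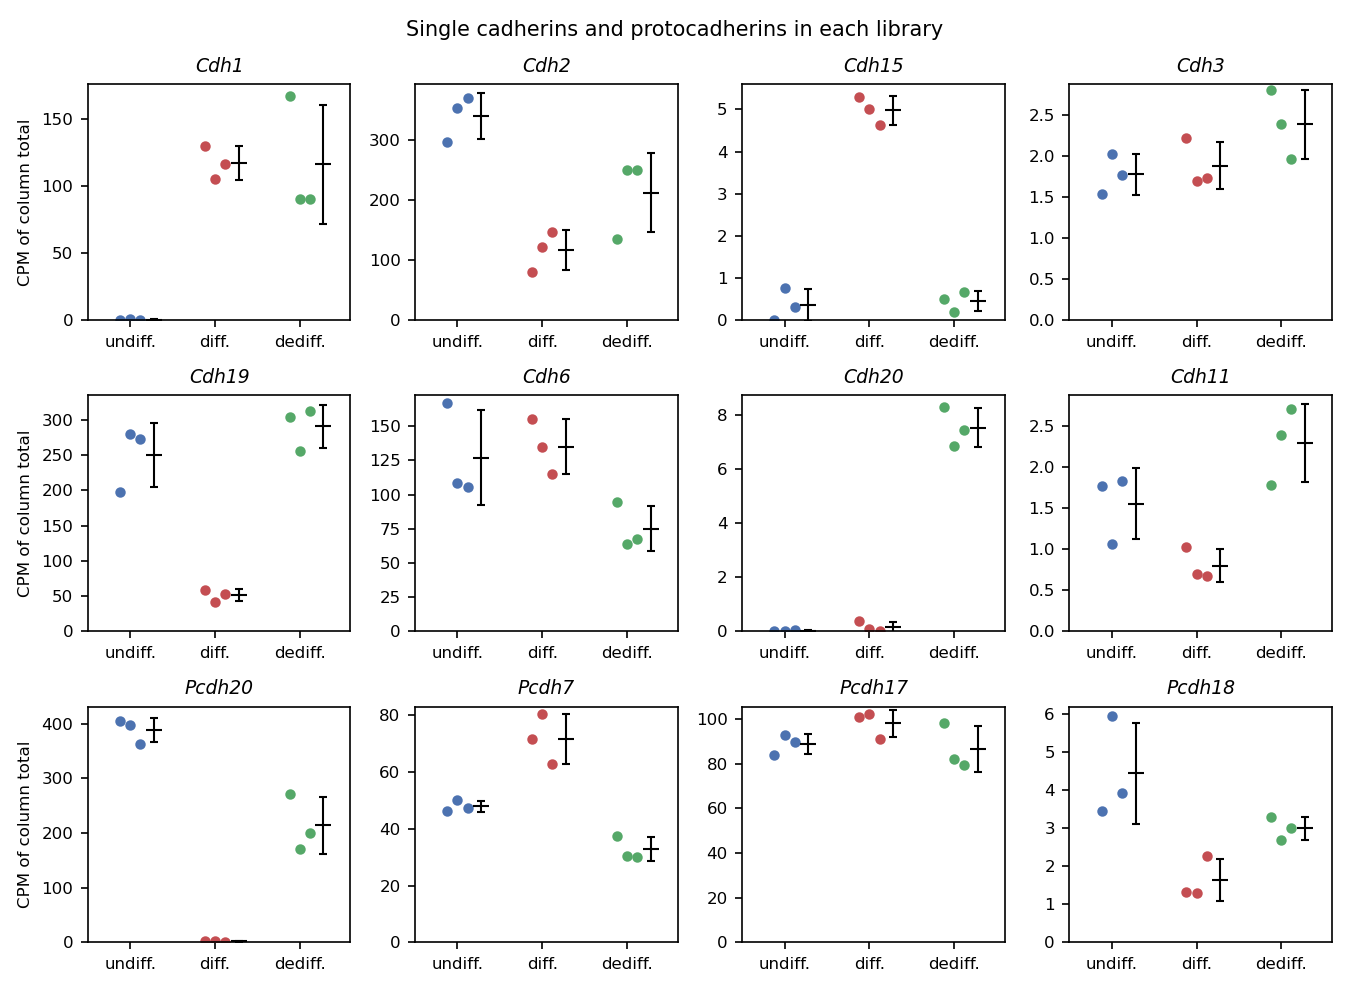
Levels of 12 single cadherin and protocadherin genes in each of the 9 libraries, in CPM of the column total on linear axes that start at 0. Points are replicates 1 to 3 from left to right, the black mark is the mean and its bar the SD (n = 3). Cdh1 stays near 117 CPM in both later stages, Cdh19 and Pcdh20 dip in the differentiated stage, Cdh15 peaks there at 4.98 CPM, and Cdh20 is seen at 7.54 CPM in the dedifferentiated stage.

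Among the other type I cadherins, Cdh15, known as M-cadherin of muscle precursor cells, rose under dbcAMP and fell after withdrawal. It stood at 0, 0.769 and 0.327 CPM in undifferentiated, 5.30, 5.02 and 4.63 CPM in differentiated and 0.509, 0.199 and 0.677 CPM in dedifferentiated replicates 1 to 3. The differentiated libraries overlapped neither other stage. The log2 change was 3.75 under dbcAMP (SE 0.61, edgeR adjusted p = 0.000334) and -3.35 after withdrawal (SE 0.58, edgeR adjusted p = 0.00093). The muscle markers Des, Myog and Acta1 stayed under 1 CPM in every library, and Myh11 was called in no comparison, with 4.19, 3.91 and 3.35 CPM in the 3 stages in order.

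Type II cadherins took several courses. Of 10 rows, 4 were tested (Cdh6, Cdh11, Cdh19 and Cdh20), and all 4 of them changed after withdrawal, 3 higher and 1 lower. Over all genes tested, 46.4% were called in that comparison, 23.2% higher and 23.2% lower. Cdh20 was at 0, 0 and 0.0654 CPM in undifferentiated, at 0.368, 0.0772 and 0 CPM in differentiated and at 8.31, 6.86 and 7.45 CPM in dedifferentiated replicates 1 to 3. It was thus near the counting limit in 6 libraries and well above it in the 3 dedifferentiated ones. The rise over the differentiated level was 5.65 on the log2 scale (SE 0.59, edgeR adjusted p = 3.1e-05) and that over the undifferentiated level 7.69 (SE 0.76, edgeR adjusted p = 3.78e-05). With 266 counts against 1 count the ratio to undifferentiated cells was 288, with an exact interval of 51.3 to 1.14e+04, and against the 6 counts of differentiated cells it was 53.9, with an interval of 24.4 to 148. The endothelial marker Vwf went from 0 in all 3 undifferentiated libraries to 0.919 CPM in differentiated and 10.1 CPM in dedifferentiated cells. Tek of the same list was at 1.26, 6.61 and 5.23 CPM in the 3 stages, called higher than in undifferentiated cells at both later ones (edgeR adjusted p = 0.000851 and 0.00588). The summed endothelial list went from 1.21 to 3.08 CPM in undifferentiated through 6.78 to 9.11 CPM in differentiated to 12.3 to 22.6 CPM in dedifferentiated libraries. Pecam1, Kdr, Emcn and Esam of that list stayed under 1 CPM in every library, and Cdh5, the cadherin of endothelial junctions, was at 0 in all 9, while the part of other cell types in the Cdh20 level was not tested.

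Cdh6 was not called under dbcAMP and fell after withdrawal. It ranged from 105.7 to 167.0 CPM in undifferentiated, from 115.4 to 155.0 CPM in differentiated and from 63.73 to 94.27 CPM in dedifferentiated libraries. The dedifferentiated libraries lay below all others. The log2 change was 0.02 under dbcAMP (edgeR adjusted p = 0.936), -0.83 after withdrawal (SE 0.21, edgeR adjusted p = 0.00901) and -0.81 against undifferentiated cells (SE 0.21, edgeR adjusted p = 0.0166). The last call was lost without dedifferentiated replicate 2 (edgeR adjusted p = 0.0565) or dedifferentiated replicate 3 (edgeR adjusted p = 0.0662), and within replicates 1 and 2 (edgeR adjusted p = 0.0746), and it was -0.54 without undifferentiated replicate 1 (edgeR adjusted p = 0.0439). Cdh11, a type II cadherin of mesenchymal cells, was scarce, with 1.55 ± 0.431, 0.801 ± 0.199 and 2.29 ± 0.471 CPM, and rose after withdrawal by 1.52 on the log2 scale (SE 0.37, edgeR adjusted p = 0.00656), a call lost within replicates 1 and 2 (1.27, edgeR adjusted p = 0.134). Its fall under dbcAMP, a log2 change of -1.03 (edgeR adjusted p = 0.0357), was lost without any 1 of undifferentiated replicates 1 and 3, differentiated replicates 2 and 3 and dedifferentiated replicate 3, with adjusted p from 0.0513 to 0.115, and within replicates 1 and 2 (edgeR adjusted p = 0.293). The fibroblast markers Dcn, Lum, Dpt and Pdgfra stayed under 1 CPM in every library, Lum at 0. Col1a1 made up most of that list at 17150, 6697 and 10830 CPM in the 3 stages. Thy1, at 0.896, 0.993 and 0.903 CPM, and Pi16, at 1.81, 2.1 and 1.97 CPM, were called in no comparison. Twist2, at 0.55, 2.21 and 0.563 CPM, was called higher under dbcAMP (edgeR adjusted p = 0.0283) and lower after withdrawal (edgeR adjusted p = 0.0334). The part of other cells in the Cdh11 level was not tested.

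Among atypical cadherins 1 of 5 rows was tested. Cdh13, T-cadherin, which is held in the membrane by a lipid anchor, fell from 3.35 ± 1.44 to 0.456 ± 0.565 CPM under dbcAMP, a log2 shift of -2.94 (SE 0.78, edgeR adjusted p = 0.0075). Without differentiated replicate 1 this shift was -4.60 (edgeR adjusted p = 0.00145), and within replicates 1 and 2 it was not called (-2.67, edgeR adjusted p = 0.0633). It stood at 0.966 ± 0.852 CPM in dedifferentiated cells, which differed from neither other stage at the threshold (edgeR adjusted p = 0.321 and 0.0803). Leaving out differentiated replicate 1 brought a call for both of these, with log2 changes of 2.77 (edgeR adjusted p = 0.0438) and -1.83 (edgeR adjusted p = 0.0370), and leaving out dedifferentiated replicate 1 gave -2.88 against undifferentiated cells (edgeR adjusted p = 0.0291).

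Pcdh20, a single protocadherin, had the largest fall of all members under dbcAMP and rose again after withdrawal. It stood at 404.8, 398.4 and 362.9 CPM in undifferentiated, at 2.21, 1.85 and 1.23 CPM in differentiated and at 272.1, 170.1 and 200.6 CPM in dedifferentiated replicates 1 to 3. The 3 stages did not overlap each other. The log2 change was -7.86 under dbcAMP (SE 0.25, edgeR adjusted p = 3.64e-09), a 232-fold lower level. After withdrawal it was 6.95 (SE 0.24, edgeR adjusted p = 3.01e-08), and the level stayed below that of undifferentiated cells by a log2 shift of -0.91 (SE 0.17, edgeR adjusted p = 0.00225). In the RefSeq order of genes, Pcdh9 lies 1 protein-coding gene away from Pcdh20 and Pcdh17 lies 3 away, and neither was called in any comparison. Pcdh17 stood at 88.9 ± 4.47, 98.0 ± 6.16 and 86.5 ± 10.2 CPM, and Pcdh9 at 6.90 ± 1.27, 6.99 ± 1.78 and 4.86 ± 0.576 CPM (SD, n = 3). Leaving out dedifferentiated replicate 1 brought a call for Pcdh17 after withdrawal (log2 change -0.26, edgeR adjusted p = 0.0354), and leaving out differentiated replicate 3 brought one for Pcdh9 (log2 change -0.68, edgeR adjusted p = 0.0454).

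Of the delta protocadherins, a group of single genes named for conserved motifs in their tails, 4 of 7 rows were tested. Pcdh7 moved in all 3 comparisons. It stood at 46.34, 50.18 and 47.5 CPM in undifferentiated, 71.83, 80.49 and 62.98 CPM in differentiated and 37.64, 30.52 and 30.24 CPM in dedifferentiated replicates 1 to 3. The stages did not overlap, with the differentiated libraries highest and the dedifferentiated ones lowest. The log2 changes were 0.52 under dbcAMP (SE 0.12, edgeR adjusted p = 0.00285), -1.11 after withdrawal (SE 0.12, edgeR adjusted p = 3.39e-05) and -0.60 against undifferentiated cells (SE 0.12, edgeR adjusted p = 0.00372). This order of calls, up under dbcAMP and then below the start, was found for 58 of all genes tested, 0.559%. Pcdh18 fell under dbcAMP and rose after withdrawal at a low level, with 3.47, 5.96 and 3.93 CPM in undifferentiated, 1.33, 1.31 and 2.28 CPM in differentiated and 3.31, 2.68 and 3.01 CPM in dedifferentiated replicates 1 to 3. Its fall under dbcAMP was a log2 shift of -1.47 (SE 0.32, edgeR adjusted p = 0.00224). Its rise after withdrawal, 0.87 (edgeR adjusted p = 0.0481), was lost without any single dedifferentiated library, without differentiated replicate 1 or 2 and without undifferentiated replicate 3, with adjusted p from 0.0611 to 0.142, and within replicates 1 and 2 (edgeR adjusted p = 0.0869).

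**Figure D2:**
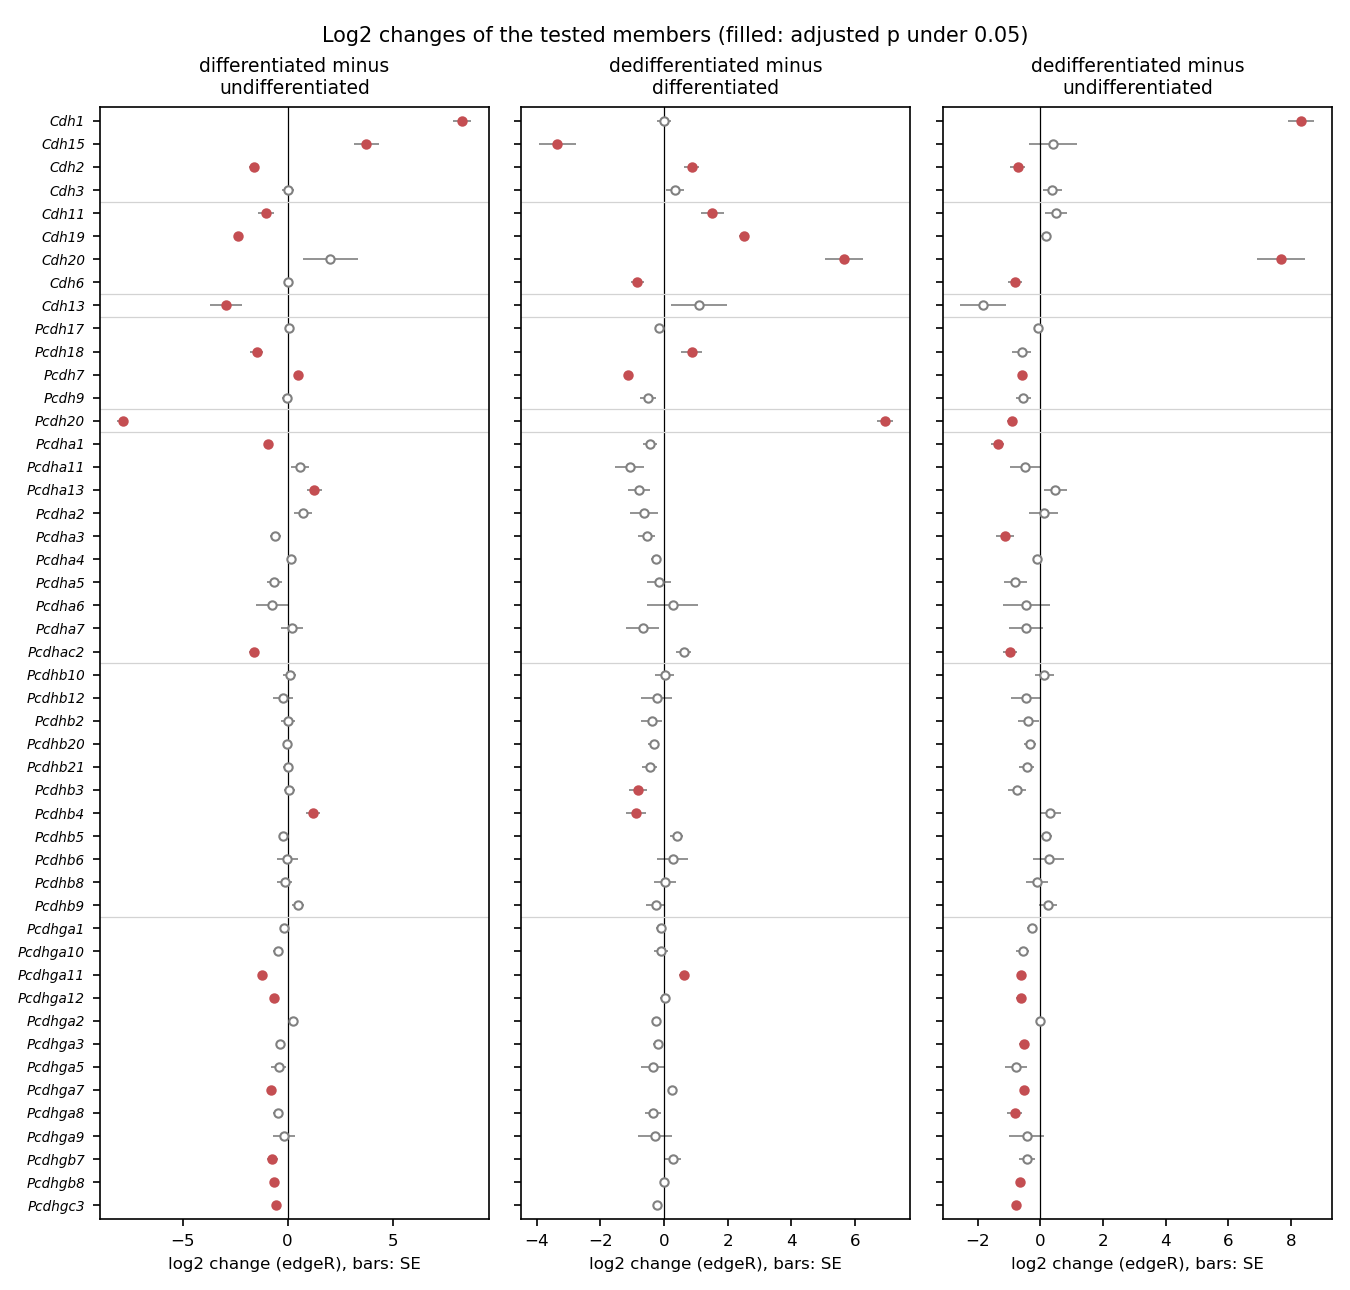
Log2 changes of the 48 tested members in the 3 comparisons from the edgeR fit, with bars for the SE and grey lines between the classes from type I cadherins at the top to the gamma cluster at the bottom. Filled points passed an adjusted p under 0.05. The single genes spread from -7.86 for Pcdh20 to 8.32 for Cdh1 under dbcAMP. The cluster genes lie near 0, with 10 of 34 called under dbcAMP, beside 59.6% of all genes tested.

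Most called changes of clustered protocadherins were falls. Of 39 cluster rows 34 were tested, and under dbcAMP 2 were higher and 8 lower, after withdrawal 1 was higher and 2 lower, and against undifferentiated cells none was higher and 10 were lower. All genes tested were called at 59.6%, 46.4% and 29.4% in these comparisons. Among the 14 single genes tested the counts were 3 higher and 6 lower, 6 higher and 3 lower, and 2 higher and 4 lower. Changes of at least 4-fold that were called numbered 5, 4 and 2 among all members, all of them single genes, beside 11.2%, 5.61% and 3.74% of all genes tested. For all 15 alpha, all 13 gamma and 6 of 11 beta rows the table holds fractional counts, and for none of the single genes. Reads from the exons that alpha transcripts share, or that gamma transcripts share, can be split among rows by such an estimator, so single alpha and gamma values are uncertain, and sums over a cluster are given first. In RefSeq, 14 of the 15 alpha rows match only as synonyms of a gene called Pcdha4.

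The alpha rows together stood at 144.1, 138.6 and 148.4 CPM in undifferentiated, at 69.62, 92.99 and 103.0 CPM in differentiated and at 87.4, 87.68 and 93.12 CPM in dedifferentiated replicates 1 to 3. Both later stages lay below the undifferentiated libraries and overlapped each other. The log2 change of the sum was -0.76 under dbcAMP (SE 0.12, edgeR adjusted p = 0.000217), 0.03 after withdrawal (edgeR adjusted p = 0.859) and -0.73 against undifferentiated cells (SE 0.12, edgeR adjusted p = 0.000899). Nearly all of the fall under dbcAMP lay in the Pcdhac2 row. Its mean went from 84.0 to 29.1 CPM, while the mean of the whole alpha sum went from 143.7 to 88.5 CPM. The gamma rows together stood at 679.9, 753.8 and 766.5 CPM, at 536.8, 494.1 and 556.2 CPM and at 486.4, 466.8 and 496.6 CPM in the same order. Their sum changed by -0.53 under dbcAMP (SE 0.08, edgeR adjusted p = 0.000185), by -0.12 after withdrawal (edgeR adjusted p = 0.241) and by -0.65 against undifferentiated cells (SE 0.08, edgeR adjusted p = 0.000162). The beta rows, whose genes are single exons, stood at 35.78 to 43.45, 42.58 to 51.69 and 34.6 to 38.91 CPM. Their sum was not called under dbcAMP (log2 change 0.11, edgeR adjusted p = 0.376), fell after withdrawal (-0.29, SE 0.10, edgeR adjusted p = 0.0414) and did not differ at the threshold between dedifferentiated and undifferentiated cells (-0.18, edgeR adjusted p = 0.231).

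**Figure D3:**
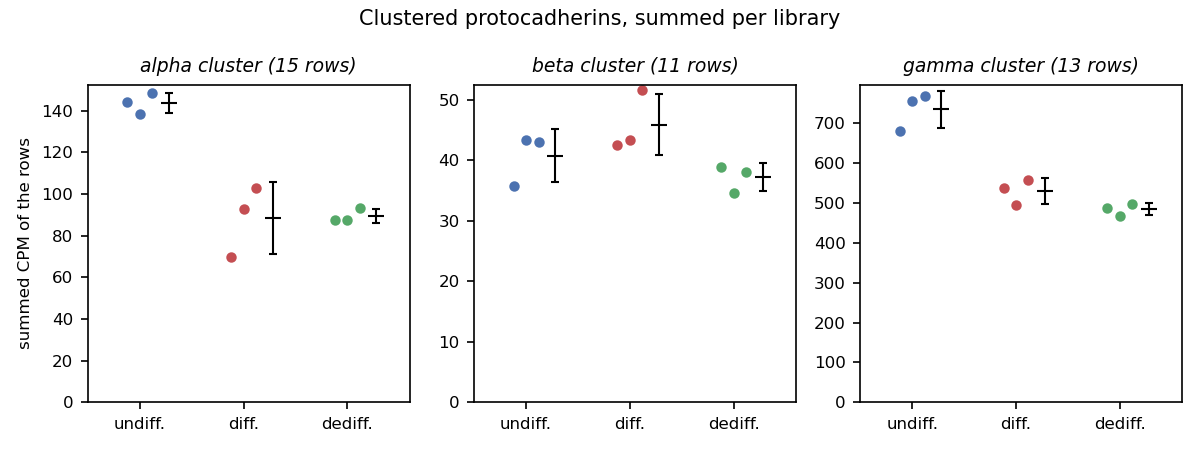
Summed CPM of the rows of the alpha, beta and gamma protocadherin clusters in each of the 9 libraries, on linear axes from 0, with the mean and SD (n = 3) in black. The alpha and gamma sums of all 6 later libraries lie below the undifferentiated ones, and the beta sums of the 3 stages lie between 34.6 and 51.69 CPM.

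Shares within the alpha cluster differed between the stages, which was not tested. Pcdhac2, one of the C-type first exons, which lie nearest to the shared exons, stood at 88.43, 77.29 and 86.41 CPM in undifferentiated, 19.29, 24.3 and 43.77 CPM in differentiated and 37.63, 47.46 and 48.44 CPM in dedifferentiated replicates 1 to 3. The undifferentiated libraries were above all others. It fell under dbcAMP by a log2 shift of -1.59 (SE 0.24, edgeR adjusted p = 0.000193) and was still lower after withdrawal (-0.97, SE 0.23, edgeR adjusted p = 0.0103). The partial rise between the later stages, 0.62, just missed the threshold (edgeR adjusted p = 0.0534) and passed without differentiated replicate 3 (1.03, edgeR adjusted p = 0.000483) or without dedifferentiated replicate 1 (0.74, edgeR adjusted p = 0.0486). Pcdhac2 held 55.7% to 61.4% of the alpha counts in undifferentiated, 26.1% to 42.5% in differentiated and 43.0% to 54.1% in dedifferentiated libraries. The Pcdha4 row, at 27.6 ± 3.97, 32.2 ± 6.95 and 26.5 ± 0.488 CPM, was called in no comparison, and its share went from 16.4% to 21.3% in undifferentiated to 30.7% to 42.3% in differentiated and 29.1% to 30.2% in dedifferentiated libraries. Without differentiated replicate 1, Pcdha4 was lower after withdrawal (-0.39, edgeR adjusted p = 0.0435).

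Pcdha1 stood at 9.71, 10.4 and 8.17 CPM in undifferentiated, 4.99, 4.36 and 6.14 CPM in differentiated and 4.04, 3.93 and 3.46 CPM in dedifferentiated replicates 1 to 3, so that the 3 stages did not overlap. Its log2 changes were -0.93 under dbcAMP (SE 0.20, edgeR adjusted p = 0.00235) and -1.36 between dedifferentiated and undifferentiated cells (SE 0.21, edgeR adjusted p = 0.000732). Pcdha3 was called lower in the latter comparison, at 10.2 ± 1.43 against 4.74 ± 1.38 CPM (log2 change -1.14, edgeR adjusted p = 0.0111). Pcdha13 was the alpha row called higher under dbcAMP, from 1.58 ± 0.672 to 4.04 ± 0.697 CPM (log2 change 1.27, edgeR adjusted p = 0.0102). After withdrawal, Pcdha13 was called lower without undifferentiated replicate 2 (edgeR adjusted p = 0.0467) and Pcdha3 without differentiated replicate 1 (edgeR adjusted p = 0.0350). The other 6 tested alpha rows, Pcdha4 among them, were called in no comparison with all libraries. Without dedifferentiated replicate 1, Pcdha7 was called lower after withdrawal (-1.92, edgeR adjusted p = 0.00149) and against undifferentiated cells (-1.75, edgeR adjusted p = 0.00453), and Pcdha5 against undifferentiated cells (-1.20, edgeR adjusted p = 0.0464).

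In the gamma cluster 6 of 13 rows fell under dbcAMP and 7 were lower in dedifferentiated than in undifferentiated cells, with none higher in either. Over all genes tested, 27.9% and 13.3% were lower in these comparisons, and 31.7% and 16.1% higher. Pcdhgc3, a C-type gamma first exon, stood at 340.7, 447.2 and 450.6 CPM in undifferentiated, 290.6, 274.2 and 313.4 CPM in differentiated and 217.0, 260.2 and 263.5 CPM in dedifferentiated replicates 1 to 3. The undifferentiated libraries were above all others, and the differentiated ones above the dedifferentiated ones. Its log2 changes were -0.55 under dbcAMP (SE 0.11, edgeR adjusted p = 0.00155), -0.23 after withdrawal (edgeR adjusted p = 0.113) and -0.79 against undifferentiated cells (SE 0.11, edgeR adjusted p = 0.000477). Pcdhga11 was the gamma row called in all 3 comparisons, with 39.9, 32.4 and 33.9 CPM in undifferentiated, 13.9, 15.1 and 18.1 CPM in differentiated and 27.8, 21.2 and 22.8 CPM in dedifferentiated replicates 1 to 3. Its stages did not overlap, and it fell under dbcAMP (log2 change -1.24, SE 0.15, edgeR adjusted p = 4.19e-05), rose by 0.62 after withdrawal (edgeR adjusted p = 0.00661) and ended below the start (log2 change -0.61, edgeR adjusted p = 0.0103).

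Pcdhga7 stood at 68.42, 65.17 and 57.54 CPM, 41.19, 36.25 and 39.55 CPM, and 49.9, 42.65 and 44.89 CPM in undifferentiated, differentiated and dedifferentiated replicates 1 to 3. Its 3 stages did not overlap. It was lower than in undifferentiated cells by log2 changes of -0.77 under dbcAMP (SE 0.11, edgeR adjusted p = 0.000122) and -0.52 after withdrawal (SE 0.11, edgeR adjusted p = 0.00437). Pcdhgb8 stood at 51.4, 43.4 and 52.9 CPM, 32.8, 30.8 and 34.9 CPM, and 39.9, 27.0 and 31.2 CPM in the same order, with log2 changes of -0.65 (edgeR adjusted p = 0.0023) and -0.64 (edgeR adjusted p = 0.00642) from the undifferentiated level. Pcdhga12 stood at 19.5, 21.1 and 20.3 CPM, 10.9, 13.8 and 15.7 CPM, and 11.0, 14.2 and 15.9 CPM, with log2 changes of -0.65 (edgeR adjusted p = 0.00528) and -0.61 (edgeR adjusted p = 0.0167). For both, the undifferentiated libraries were above all others and the later stages overlapped. Within replicates 1 and 2 the difference of dedifferentiated from undifferentiated cells was not called for Pcdhga11 (-0.62, edgeR adjusted p = 0.0881), Pcdhgb8 (-0.56, edgeR adjusted p = 0.125) or Pcdhga12 (-0.75, edgeR adjusted p = 0.0659).

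Calls of the remaining gamma rows depended on single libraries. Pcdhgb7 was called lower under dbcAMP, at 12.9 ± 1.45 against 8.16 ± 2.26 CPM (log2 change -0.72, edgeR adjusted p = 0.0269), but not without differentiated replicate 2 or 3 or undifferentiated replicate 2 (edgeR adjusted p from 0.0705 to 0.0963). Pcdhga3, at 28.1 ± 4.99, 23.0 ± 2.13 and 20.1 ± 1.65 CPM, was lower in dedifferentiated than undifferentiated cells (-0.54, edgeR adjusted p = 0.0251), but not without undifferentiated replicate 1 (-0.36) or dedifferentiated replicate 2 or 3 (edgeR adjusted p from 0.0571 to 0.0935). Pcdhga8, at 10.3 ± 0.734, 7.73 ± 0.991 and 6.04 ± 2.01 CPM, was lower there too (-0.83, edgeR adjusted p = 0.0284), but not without undifferentiated replicate 2 or 3 or dedifferentiated replicate 3 (edgeR adjusted p from 0.0636 to 0.0689). Pcdhga2 (36.2 ± 1.52, 44.7 ± 2.25 and 37.4 ± 7.59 CPM), Pcdhga10 (37.0 ± 4.16, 27.6 ± 5.29 and 25.8 ± 7.41 CPM), Pcdhga1 (16.9 ± 1.73, 15.7 ± 1.66 and 14.4 ± 1.64 CPM) and Pcdhga5 (8.79 ± 1.43, 6.81 ± 1.44 and 5.23 ± 3.04 CPM) were called in no comparison. Without dedifferentiated replicate 1, calls appeared for Pcdhga2 after withdrawal (-0.41, edgeR adjusted p = 0.00785) and for Pcdhga5 after withdrawal (-0.91, edgeR adjusted p = 0.0288) and against undifferentiated cells (-1.38, edgeR adjusted p = 0.00696). Pcdhga10 was called lower under dbcAMP without dedifferentiated replicate 1 or 2 or differentiated replicate 1 (edgeR adjusted p from 0.0170 to 0.0461) and against undifferentiated cells without dedifferentiated replicate 1 (-0.74, edgeR adjusted p = 0.0379). Under dbcAMP, Pcdhga3 was called lower without undifferentiated replicate 2 or 3 (edgeR adjusted p = 0.0468 and 0.0390) and Pcdhga8 without dedifferentiated replicate 3 (edgeR adjusted p = 0.0355). Within replicates 1 and 2, the calls of Pcdhgb7, Pcdhga3 and Pcdhga8 were lost as well (edgeR adjusted p = 0.0955, 0.120 and 0.192).

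All 11 beta rows were tested, and 9 of them were called in no comparison, beside 30.9% of all genes tested. Pcdhb4 rose under dbcAMP from 2.31 ± 0.912 to 5.50 ± 0.520 CPM (log2 change 1.20, SE 0.33, edgeR adjusted p = 0.00877) and was at 2.94 ± 0.980 CPM after withdrawal (-0.89, edgeR adjusted p = 0.0433). The fall after withdrawal was lost in 6 of the 9 fits that leave out 1 library (edgeR adjusted p from 0.0563 to 0.142, the highest without dedifferentiated replicate 2). Pcdhb3 stood at 6.14 ± 0.541, 6.78 ± 0.719 and 3.75 ± 1.59 CPM, and its call after withdrawal (-0.83, edgeR adjusted p = 0.0332) was lost without differentiated replicate 2 or 3 or dedifferentiated replicate 2 or 3 (edgeR adjusted p from 0.0763 to 0.0894). Without dedifferentiated replicate 1, Pcdhb3 was also lower than in undifferentiated cells (-1.08, edgeR adjusted p = 0.0183). Within replicates 1 and 2 neither the rise of Pcdhb4 (1.08, edgeR adjusted p = 0.123) nor its fall or that of Pcdhb3 after withdrawal (edgeR adjusted p = 0.254 and 0.218) was called. Pcdhb20 at 8.49, 8.78 and 6.96 CPM, Pcdhb5 at 5.75, 5.13 and 6.71 CPM, Pcdhb21 at 4.30, 4.51 and 3.30 CPM, Pcdhb9 at 2.76, 4.05 and 3.33 CPM, Pcdhb10 at 3.01, 3.34 and 3.38 CPM and Pcdhb2 at 3.36, 3.52 and 2.70 CPM in the 3 stages were not called.

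Most, but not all, clustered protocadherin promoters are known to carry a conserved element, at which the factor CTCF binds. The promoters of the beta and gamma rows are shown here because the rows of each cluster are described together. RefSeq promoters of GRCr8, from 250 bases before each gene's start, were in the table for all 11 beta rows and 12 of 13 gamma rows. The 10-base word held by most beta promoters, GGTGGCGCTG on either strand, was in 11 of 11 of them and in 56 of 27457 promoters of the table (0.204%), 42 of these outside the protocadherins. Capitals mark the word in the forward-strand sequences of the 2 beta rows that were called and 2 that were not, at chr18:29285600-29285637, chr18:29292207-29292244, chr18:29302400-29302437 and chr18:29485806-29485843 in order.
Pcdhb3: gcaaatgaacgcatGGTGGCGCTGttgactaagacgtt
Pcdhb4: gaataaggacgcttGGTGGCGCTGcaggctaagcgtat
Pcdhb5: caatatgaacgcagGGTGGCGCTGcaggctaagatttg
Pcdhb20: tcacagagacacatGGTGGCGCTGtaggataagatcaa

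The word begins 61, 69, 52 and 68 bases before the start of Pcdhb3, Pcdhb4, Pcdhb5 and Pcdhb20. The word was picked as the one held by most beta promoters and is in all of them. Its presence therefore cannot set called beta rows apart from those not called. The word held by most gamma promoters, GCTGTTCACC on either strand, was in 7 of 12 of them and in 26 of 27457 promoters (0.0947%), 19 of these outside the protocadherins. Both words were searched for after the values were seen. Capitals again mark the word, in 2 gamma rows called lower and 1 not called, at chr18:29794207-29794244, chr18:29843864-29843896 and chr18:29825816-29825853 in order, on the forward strand.
Pcdhga7: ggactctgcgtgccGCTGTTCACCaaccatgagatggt
Pcdhga12: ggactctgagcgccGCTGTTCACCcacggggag
Pcdhga10: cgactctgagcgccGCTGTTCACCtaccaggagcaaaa

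Of the 7 gamma rows with the word, 3 were lower in dedifferentiated than in undifferentiated cells (Pcdhga7, Pcdhga8 and Pcdhga12), and of the 5 without it 4 were (Pcdhga3, Pcdhga11, Pcdhgb8 and Pcdhgc3). Since dbcAMP acts in cells as cyclic AMP, the cyclic AMP response element was also searched for on both strands in the promoters of the 33 tested members that the table holds. Of these, 11 were beta rows and 12 gamma rows. The promoters of Cdh1 and Cdh2 were not in the table, so these 2 genes were not searched. The full element TGACGTCA was in 0 of 33, beside 1.68% of all 27457 promoters and 3.17% of those of 7956 tested genes. Its first letters, TGACG, which every full element contains, were in 3 of 33 (Pcdha4, Pcdhga1 and Pcdhga7), beside 18.8% of all promoters and 29.7% of those of tested genes. A match is a description of these letters in this window and shows no site or binding.

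Of the 68 members, 20 were not tested for low counts. Cdh5, Cdh7, Cdh8, Cdh9, Cdh16, Cdh17, Cdh26 and Pcdh11x were at 0 in all 9 libraries, which allows each up to 0.298 CPM in the shallowest library. The other 12 reached at most 1.54 CPM in any library. Fitted with no filter on counts, 3 of them were called under dbcAMP: Cdh23, a cadherin of hair cell tip links, at 1.19 ± 0.419 against 0.211 ± 0.0738 CPM (log2 change -2.52, edgeR adjusted p = 0.00323), Cdh10 at 0.296 ± 0.103 CPM against 0 (edgeR adjusted p = 0.0134) and Pcdh8 at 0.0961 ± 0.167 against 0.841 ± 0.317 CPM (edgeR adjusted p = 0.0136). In that fit Cdh10 was called higher and Pcdh8 lower after withdrawal (edgeR adjusted p = 0.0338 and 0.0408), and Cdh23 lower against undifferentiated cells (edgeR adjusted p = 0.0285), while 46.6%, 35.1% and 22.4% of all genes were called in the 3 comparisons. These 3 were named after their values were seen, and the fold of Cdh10 and Pcdh8 rests on a few counts.

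Of the 48 tested members 23, or 47.9%, were called in no comparison, beside 30.9% of all genes tested. Members lower under dbcAMP, not called after withdrawal and lower than at the start numbered 6 (12.5%, beside 4.19% of all genes): Pcdha1, Pcdhac2, Pcdhga7, Pcdhga12, Pcdhgb8 and Pcdhgc3, all cluster rows. Reads of shared exons can be split among the rows of a cluster, so these rows are not independent of each other. The alpha and gamma sums took this same course, but they contain these rows and add no separate evidence. Pcdhac2 held on average 58.4% of the alpha counts and Pcdhgc3 56.1% of the gamma counts in undifferentiated libraries. A fall, a rise and a level then not called different from the start was found for Cdh11, Cdh19 and Pcdh18. These were 6.25% of members, beside 12.2% of all genes. The same with a final level still lower was found for Cdh2, Pcdh20 and Pcdhga11, 6.25% of members beside 5.91% of all genes. Rise and return was found for Cdh15 and Pcdhb4, 4.17% of members beside 12.6% of all genes. Cdh1 was the member that rose, was not called changed after withdrawal and remained above the start, a course of 6.45% of all genes. Cdh20 was the member not called under dbcAMP and higher after withdrawal than at both other stages, beside 1.65% of all genes.

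The intracellular partners of classical cadherins changed in both directions. The counts of this list and those that follow stand beside 59.6% of all genes called under dbcAMP, 46.4% after withdrawal and 29.4% against undifferentiated cells, with a median log2 change over all genes of 0.05 under dbcAMP. Of 8 catenins tested, 3 rose and 3 fell under dbcAMP, and their median log2 change was 0.17. Ctnnd1, p120-catenin, which holds cadherins at the surface, fell from 1470 ± 63.6 to 482.6 ± 32.7 CPM and was at 592.2 ± 33.2 CPM after withdrawal (log2 changes of -1.67, edgeR adjusted p = 9.62e-08, and -1.36 from the start, edgeR adjusted p = 2.76e-06). Pkp1, plakophilin 1 of desmosomes, fell from 248.1 ± 22.2 to 42.2 ± 9.13 CPM and was at 102.5 ± 7.43 CPM after withdrawal. Ctnnal1, an alpha-catenin relative, rose from 48.4 ± 2.79 to 642.0 ± 71.6 CPM and was at 435.6 ± 120.5 CPM after withdrawal (log2 changes of 3.67, edgeR adjusted p = 7.34e-08, -0.55, edgeR adjusted p = 0.0217, and 3.12 from the start, edgeR adjusted p = 1.5e-06). Alpha-catenin Ctnna1 rose to 1.66-fold under dbcAMP and fell back (edgeR adjusted p = 0.000132 and 0.000433), while beta-catenin Ctnnb1 moved by a log2 change of -0.31 and back by 0.30 (edgeR adjusted p = 0.0195 and 0.0312). After withdrawal 4 catenins rose and 2 fell, and against undifferentiated cells 2 were higher and 2 lower.

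Of 10 other junction partners tested, 5 rose and 3 fell under dbcAMP, 3 rose and 4 fell after withdrawal, and 5 were higher and 1 lower than at the start. Tjp1, a scaffold of tight junctions, went from 223.6 to 384.9 and 433.7 CPM, and Vcl, vinculin, from 471.6 to 871.7 and 632.6 CPM in the 3 stages. The LIM-domain proteins Lima1 and Ajuba differed: Lima1 was at 169, 129 and 86.4 CPM, lower in all 3 comparisons, and Ajuba at 80.1, 80.9 and 119 CPM, called higher after withdrawal (edgeR adjusted p = 0.00103). Of 10 tested proteases that cut cadherins or trim them in the membrane, 2 rose and 7 fell under dbcAMP, and Adam17, a surface sheddase, stood at 151.0 ± 21.9, 615.8 ± 17.1 and 211.4 ± 9.68 CPM (log2 changes of 1.97, edgeR adjusted p = 5.49e-08, and -1.53, edgeR adjusted p = 8.04e-07). Adam10, a sheddase of E- and N-cadherin, was not called under dbcAMP (log2 change 0.01, edgeR adjusted p = 0.956).

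More distant members of the cadherin superfamily also changed in both directions. Of 9 tested, 5 rose and 2 fell under dbcAMP, with a median log2 change of 0.60. The giant cadherin Fat4, a partner in planar polarity, went from 53.5 ± 2.33 to 4.47 ± 0.294 and then 12.0 ± 2.90 CPM, and Fat3 from 13.2 ± 1.81 to 0.300 ± 0.219 and then 5.50 ± 0.768 CPM. Celsr3, a seven-pass cadherin, did the opposite, from 1.27 ± 0.575 to 51.5 ± 5.77 and back to 2.97 ± 2.20 CPM (log2 changes of 5.28, edgeR adjusted p = 1.64e-06, and -4.09, edgeR adjusted p = 1.16e-05). Its relative Celsr2 rose by 0.60 on the log2 scale under dbcAMP (edgeR adjusted p = 0.00861) and fell by 0.50 after withdrawal (log2 change -0.50, edgeR adjusted p = 0.0278), and Clstn1, calsyntenin 1, was at 506.6, 700.1 and 662.6 CPM in the 3 stages.

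Of the 9 tested genes whose proteins are known to repress the E-cadherin gene or to work with its repressors, 2 rose and 3 fell under dbcAMP, and 5 were lower and none higher in dedifferentiated than in undifferentiated cells. Snai2, Slug, was at 21.1 ± 3.73, 0.685 ± 0.552 and 8.78 ± 0.546 CPM, a log2 change of -4.93 under dbcAMP (SE 0.35, edgeR adjusted p = 8e-07), 3.62 after withdrawal (edgeR adjusted p = 2.2e-05) and -1.31 from the start (edgeR adjusted p = 0.00423). Zeb2 was at 1048 ± 96.1, 580.9 ± 29.9 and 702.5 ± 50.2 CPM, with a log2 change of -0.91 under dbcAMP (edgeR adjusted p = 1.02e-05) and -0.62 from the start (edgeR adjusted p = 0.000531). Snai2 and Zeb2 rose after withdrawal while the Cdh1 level was not called changed, and no link between them was tested. Tcf4 was lower at both later stages, at 28.9, 16.4 and 15.1 CPM, and Tcf3 and Snai1 were called lower only against undifferentiated cells in the dedifferentiated stage (edgeR adjusted p = 0.0406 and 0.0162). The 2 that rose under dbcAMP were Twist2 (log2 change 1.90, edgeR adjusted p = 0.0283) and Foxc2 (log2 change 1.36, edgeR adjusted p = 0.00874). Zeb1, at 89.2, 90.6 and 137 CPM, was called in no comparison (edgeR adjusted p = 0.0509 after withdrawal). Of 13 tested regulators of the protocadherin clusters and their signalling partners, 4 rose and 7 fell under dbcAMP. Among them the cohesin subunit Rad21 was at 301, 242 and 267 CPM and its partner Stag2 at 167, 258 and 172 CPM, while Cyfip2 of the WAVE complex was at 474, 747 and 367 CPM in the 3 stages. The lists were described by counts alone, and nothing particular to any of them was tested.

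**Figure D4:**
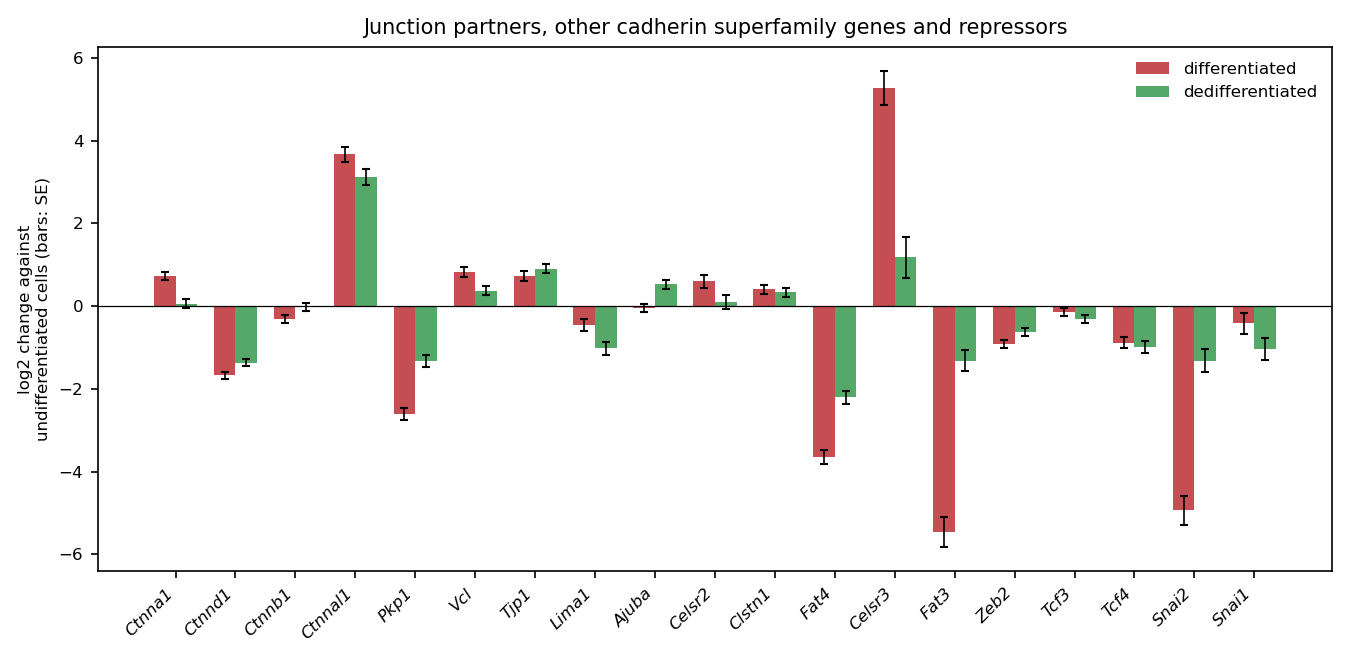
Log2 changes against undifferentiated cells, from the edgeR fit with bars for the SE, of up to 5 called genes with the highest mean level in each of 4 lists: catenins, junction partners, other cadherin superfamily genes and repressors of E-cadherin, in this order from Ctnna1 to Snai1. Red bars are differentiated and green bars dedifferentiated cells, and Ctnnal1 and Celsr3 rise by 3.67 and 5.28 while Fat4, Fat3 and Snai2 change by -3.64, -5.46 and -4.93 in differentiated cells.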

How the data were processed

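Cell mRNA of 9 libraries was analysed, 3 per stage. The values are estimated counts per gene, deposited by the authors as a merged Salmon gene table, per the file name. The submitters' processing notes list Salmon beside STAR, HISAT2, Trim Galore and DESeq2 1.26.0 with no role, and the Salmon version, genome build and annotation are not given in the sources used here. Columns were matched to samples by library code and stage, since the replicate suffix of the column names differs from the titles. Estimated counts were rounded to whole numbers, 1.15% of values having a fraction. Genes passing filterByExpr with a minimum count of 10 (10372 of 17315 rows) entered a quasi-likelihood fit over all 9 libraries in edgeR 4.0.16 (R 4.3.3), with TMM factors and calls at a Benjamini-Hochberg adjusted p under 0.05, and DESeq2 1.42.0 was an alternative. The test was checked on simulated data for the dbcAMP comparison: of 200 changed genes among 10372, 84% of the 2-fold and 96.9% of the 4-fold ones were called, with 4.28% false among calls. The simulated libraries were independent, with no effect of replicate or project. In the data 59.6% of genes were called in that comparison. The check therefore cannot give the error rate with that many changes or with differences shared by replicate or project.

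CPM is the estimated count over the column total, times 1000000. Of the table's names 97.7% matched a RefSeq symbol or synonym. The members and lists were chosen with earlier results of these data known. Cdh1, Cdh2 and Cdh19 were described singly, then the 30 other tested members with the highest mean CPM, then, with values in every library, the 12 others of all tested with the smallest adjusted p, Cdh15 and Cdh20 among them, and up to 5 called genes per list by mean CPM, of which 1 is not reported here. Cdh3, Cdh11, Cdh13, Pcdha5, Pcdha7 and Pcdha13 lie outside that rule and were named after their values were seen, as were Twist2, Foxc2 and Zeb1 among the repressors. The vesicle miRNA and lncRNA files were not used here.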

Additional observations from a re-analysis of the deposited data

How the results depend on the processing

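No result changed direction while called. With all rows of a cluster summed to 1 row, 17 members were tested. Of these, 11 were called under dbcAMP (19 of 48 unsummed) and 10 after withdrawal (12 of 48). Between dedifferentiated and undifferentiated cells 8 were called (16 of 48). Over all genes 59.7%, 46.6% and 29.4% were called in that fit. The members' median log2 changes were -0.0426, 0.0283 and -0.545, against -0.165, -0.175 and -0.458 unsummed. The share of members called thus depended on counting cluster rows singly. Within the sequencing project of replicates 1 and 2, with fewer libraries, 9 members were called between dedifferentiated and undifferentiated cells, and over all genes 2606 after withdrawal (4809 with 9 libraries) and 1283 between dedifferentiated and undifferentiated cells (3045 with 9 libraries). Leaving out 1 library at a time, 18 to 22 members were called under dbcAMP, 9 to 16 after withdrawal and 12 to 22 against undifferentiated cells. Over all genes 5558 to 6415, 3916 to 5184 and 2246 to 3044 were called in these fits. With the replicate block 20, 11 and 19 members were called in the 3 comparisons, beside 61%, 48.5% and 31.4% of all genes. This block gained 6 member calls and lost 3: Cdh11 under dbcAMP (edgeR adjusted p = 0.0511), and Pcdh18 and Pcdhb4 after withdrawal (edgeR adjusted p = 0.0602 and 0.0552). Replicate numbers were not taken to pair the samples, since the deviations of 7 of 9 same-numbered pairs, and not of all, correlated over 0.1. These correlations ran from 0.0279 to 0.305, those of other pairs from -0.232 to 0.104, and 7 of 9 libraries correlated best with their own number. Low counts limit Cdh11, Cdh13, Cdh15, Cdh20 and most alpha and beta rows.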
